A study of Homo sapiens with 6 samples.

Results

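The genes described here are 45 genes of the heat shock response and the unfolded protein response, followed in MOLM-14 leukaemia cells after 24 h of cortistatin A (CA). They were listed by name for their known roles in the 2 responses and fall into 18 cytosolic chaperones and cochaperones, 22 genes of the endoplasmic reticulum (ER), 3 mitochondrial chaperones and 2 heat shock factors. A gene was measured where at least 1 probe set of the array was annotated to it alone, and its value was that of the probe set with the highest mean over the 6 arrays. By this rule 39 of the 45 genes were measured, out of 19775 genes on the array. Of the other 6, HSPA1A, HSPA1B, HSPA8 and SYVN1 had only probe sets that name another gene too, and no probe set in the annotation used here named HSF2 or AHSA1.

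MOLM-14 is an established human acute myeloid leukaemia line with an MLL-AF9 rearrangement, and every array comes from that 1 line. Cells were plated in 3 wells per group and kept for 24 h either in the vehicle DMSO or in 10 nM CA, a steroidal alkaloid and inhibitor of the Mediator kinases CDK8 and CDK19. RNA of each well was hybridised to 1 Affymetrix U133 Plus 2.0 array. Values are log2 intensities, so a change of 1 is a doubling, and each change below is the mean of the 3 CA arrays minus the mean of the 3 DMSO arrays.

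Unfolded proteins in the cytosol release heat shock factor 1, which binds arrays of the pentamer nGAAn, the heat shock element, and switches on HSP70, its J-protein partners and other cytosolic chaperones. Unfolded proteins in the ER are sensed by 3 membrane proteins, ATF6, PERK and IRE1 (gene ERN1). ATF6 acts with the factor NF-Y on the ER stress element of ER chaperone genes, IRE1 splices the mRNA of XBP1 into that of an active factor that drives ER-associated degradation and export genes, and PERK lowers translation and raises ATF4. The comparison asks whether transcripts of the cytosolic and of the ER branch differ when the Mediator kinases are inhibited.

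The promoters of 8 genes are shown because they carry these elements and because genes with the same element had different values below. Each is the 250 bases before the transcription start in RefSeq's annotation of GRCh38.p14, read 5′ to 3′ on the gene's strand. The windows are chr6:31815293-31815542 on the plus strand for HSPA1A, chr19:14518398-14518647 on the minus strand for DNAJB1, chr7:157336754-157337003 on the plus strand for DNAJB6 and chr14:102087045-102087294 on the minus strand for HSP90AA1. Those of the ER genes are chr22:28800570-28800819 on the minus strand for XBP1, chr16:56931892-56932141 on the plus strand for HERPUD1, chr9:125241344-125241593 on the minus strand for HSPA5 and chr12:103930160-103930409 on the plus strand for HSP90B1. DNAJB1, HSP90AA1 and XBP1 have further annotated starts, and the window with the element is the one shown. Capitals mark the heat shock elements in the first 4. In the others they mark the paired blocks of the ER stress element, the whole ER stress element II and, in HERPUD1, also an amino acid response element.
HSPA1A: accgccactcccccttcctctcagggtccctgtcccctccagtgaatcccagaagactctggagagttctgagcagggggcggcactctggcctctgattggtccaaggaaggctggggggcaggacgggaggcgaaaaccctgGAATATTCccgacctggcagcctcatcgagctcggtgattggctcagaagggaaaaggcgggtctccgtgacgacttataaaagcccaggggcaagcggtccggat
DNAJB1: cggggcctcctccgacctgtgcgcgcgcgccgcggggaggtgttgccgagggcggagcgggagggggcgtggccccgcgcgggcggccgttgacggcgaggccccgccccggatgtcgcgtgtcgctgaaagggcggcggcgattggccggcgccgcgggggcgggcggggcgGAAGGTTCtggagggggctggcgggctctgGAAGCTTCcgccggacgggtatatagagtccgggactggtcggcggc
DNAJB6: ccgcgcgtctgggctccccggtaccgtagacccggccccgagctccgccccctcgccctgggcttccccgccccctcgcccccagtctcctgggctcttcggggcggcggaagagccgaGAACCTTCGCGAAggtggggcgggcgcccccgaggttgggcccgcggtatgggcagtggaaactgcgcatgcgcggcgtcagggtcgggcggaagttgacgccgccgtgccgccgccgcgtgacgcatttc
HSP90AA1: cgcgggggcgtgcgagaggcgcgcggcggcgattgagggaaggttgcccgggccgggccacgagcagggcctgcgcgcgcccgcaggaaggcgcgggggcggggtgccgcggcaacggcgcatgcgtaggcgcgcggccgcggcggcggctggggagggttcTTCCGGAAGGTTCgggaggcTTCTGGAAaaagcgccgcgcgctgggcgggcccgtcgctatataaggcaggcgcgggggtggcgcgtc
XBP1: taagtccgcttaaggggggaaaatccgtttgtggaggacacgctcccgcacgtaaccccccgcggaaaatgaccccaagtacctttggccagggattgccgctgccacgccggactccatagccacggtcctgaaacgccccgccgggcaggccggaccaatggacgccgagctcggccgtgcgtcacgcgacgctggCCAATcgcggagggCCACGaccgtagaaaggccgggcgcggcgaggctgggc
HERPUD1: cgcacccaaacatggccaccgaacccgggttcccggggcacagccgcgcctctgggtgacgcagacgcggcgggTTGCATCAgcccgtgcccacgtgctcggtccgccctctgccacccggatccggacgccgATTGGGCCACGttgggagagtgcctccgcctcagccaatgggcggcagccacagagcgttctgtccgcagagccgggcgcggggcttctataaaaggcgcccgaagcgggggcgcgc
HSPA5: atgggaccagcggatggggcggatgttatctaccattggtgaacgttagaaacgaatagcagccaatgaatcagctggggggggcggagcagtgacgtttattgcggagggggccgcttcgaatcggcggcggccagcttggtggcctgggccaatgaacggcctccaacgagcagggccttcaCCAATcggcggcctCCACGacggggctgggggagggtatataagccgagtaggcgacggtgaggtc
HSP90B1: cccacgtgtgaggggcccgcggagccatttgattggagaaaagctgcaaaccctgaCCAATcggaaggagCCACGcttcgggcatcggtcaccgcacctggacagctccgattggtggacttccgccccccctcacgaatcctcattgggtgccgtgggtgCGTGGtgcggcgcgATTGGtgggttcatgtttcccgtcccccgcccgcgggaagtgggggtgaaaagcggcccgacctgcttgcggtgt

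A window of this kind was found for 42 of the 45 genes, 17 of them cytosolic and 21 of the ER. Both strands were searched, and a match is a run of letters, not a site shown to be bound. The head-to-head heat shock element, GAANNTTC, was in 10 of the 17 cytosolic genes (HSPA1A, HSPA1B, HSPA8, HSP90AA1, HSP90AB1, HSPB1, DNAJA1, DNAJB1, DNAJB6 and CHORDC1) and in 1 of the 21 ER genes, SELENOS, against 7.05% of 27305 genes with a window. The mitochondrial gene HSPD1 held it too. The tail-to-tail form, TTCNNGAA, was in 7 cytosolic genes, in HSPD1 and in 0 ER genes, against 8.12% of genes. Matches of the forms can share bases, as in DNAJB6, or lie apart, as the last one shown for HSP90AA1. In HSPA1A the element lay 106 to 99 bases before the start, and in DNAJB1 there were 2, from 77 to 70 and from 47 to 40 bases before it. The ER stress element, CCAAT and CCACG spaced by 9 bases, was in 5 of the 21 ER genes (HSPA5, HSP90B1, PDIA6, CRELD2 and XBP1) and 0 cytosolic genes, against 0.0916% of genes. The ER stress element II, ATTGG and CCACG spaced by 1 base, was in 3 ER genes (HERPUD1, HYOU1 and SDF2L1), against 0.0659% of genes. In XBP1 the ER stress element lay 52 to 34 bases before the start, in HSPA5 66 to 48 bases before it, and HSP90B1 held 2 of them. The unfolded protein response element TGACGTGG was in HYOU1 among the listed genes, and the amino acid response element TGATGCAA in HERPUD1. None of the 6 motifs was found in the windows of BAG3, HSPA4, EDEM1 and DNAJB9.

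After CA, 6 of the 14 measured cytosolic genes were higher than in DMSO and none was lower: BAG3, the 4 J proteins DNAJA1, DNAJB1, DNAJB4 and DNAJB6, and HSPA4. Of the 21 measured ER genes, 5 were higher (EDEM1, HERPUD1, XBP1, DNAJB9 and SELENOS) and none was lower. No mitochondrial chaperone was called, and neither was HSF1. The threshold for a call was an adjusted p of 0.05 in limma's moderated test with Benjamini-Hochberg adjustment over all 19775 genes, of which 6.64% were called higher and 4.49% lower. The called changes of the 39 genes ran from 0.20 (HSPA4) to 0.56 (EDEM1), that is from 1.15-fold to 1.48-fold. The median change was 0.14 over the 14 cytosolic genes and 0.014 over the 21 ER genes, beside -0.0034 over all genes. All 14 cytosolic values were above 0, against 12 of the 21 ER values and 9653 of all 19775. The cytosolic count depends on the probe set used. Without those ending in _x_at or _s_at, HSPA4 changed by -0.092 and CHORDC1 by -0.20, both uncalled. That CHORDC1 probe set read 3.97 in DMSO, under the lower quartile of each array (4.11 to 4.14), against 11.22 for the one used. HSP90AA1 reached -0.0028 with an array left out. At an unadjusted p under 0.05 in the same limma fit, 9 cytosolic genes were higher and 0 lower, and 6 ER genes were higher and 2, ATF6 and HSP90B1, lower. Over all genes 13.6% were higher and 11.7% lower at that unadjusted threshold. Probe sets whose names end in _s_at or _x_at, marks of probes that may match more than 1 transcript, were also left out. Then 1 of 9 cytosolic genes (DNAJB4) and 3 of 16 ER genes (XBP1, EDEM1 and DNAJB9) were called higher. Over all genes 770 of 17098 were. BAG3, DNAJB1, DNAJB6 and SELENOS have no other kind of probe set of their own. DNAJA1 (0.084), HSPA4 (-0.092) and HERPUD1 (0.059) were measured by another probe set and were not called. The shares over all genes include many dimmer genes. The median level was 10.20 for the cytosolic and 10.26 for the ER genes, beside 6.47 over all genes. When genes averaging under 6 were dropped from the main fit, 1914 of the 10997 left were called higher and 1539 lower. There 8 of 14 cytosolic and 6 of 21 ER genes were called higher, and 0 and 2 lower.

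The groups did not overlap, with every CA array above every DMSO array, for 12 of the 14 cytosolic genes, where the share over all genes was 16.6%. For 7 of the 21 ER genes every CA array was higher, and for 4 (ATF6, HSPA5, HSP90B1 and DNAJB11) every CA array was lower, where 15.2% of all genes were. These shares over all genes again include many dimmer genes. In the 7 further pathway lists described below, 18.2% to 58.3% of genes were higher on every CA array and 8.33% to 32.1% lower. Of 13 bright reference genes, 30.8% were higher and 30.8% lower. The ER median was -0.0031 with arrays centred on 13 reference genes and -0.0076 after a second quantile normalization, so it has no settled sign. The cytosolic median stayed above 0 under these scalings.

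**Figure D1:**
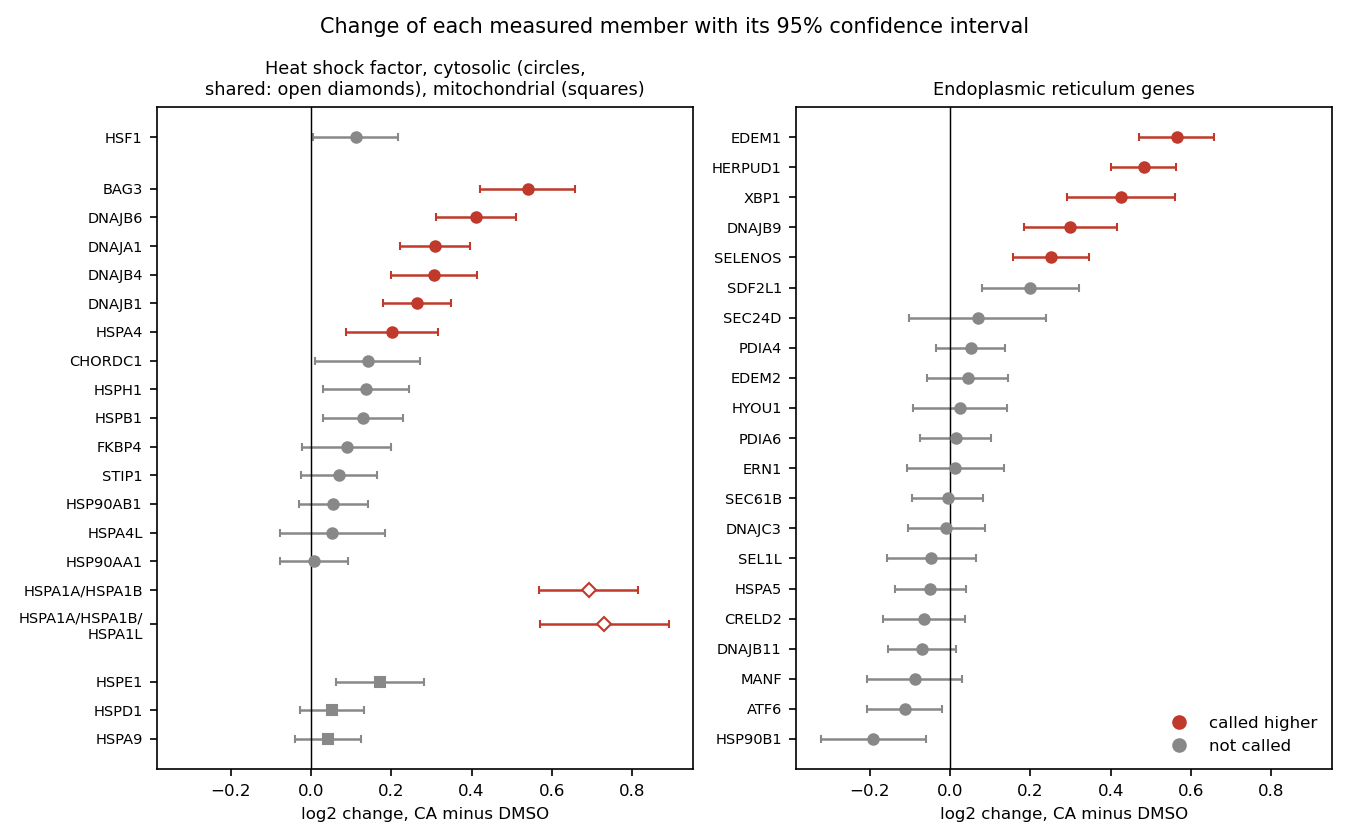
Change of each measured gene (log2, CA minus DMSO) with its 95% confidence interval, the cytosolic, mitochondrial and heat shock factor genes on the left and the ER genes on the right; red points were called higher, and open diamonds are probe sets shared by HSPA1A and HSPA1B from the fit over probe sets. With the probe set used for each gene, all 14 cytosolic points lie above 0, while the ER genes run from -0.19 for HSP90B1 to 0.56 for EDEM1.

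HSF1, the main heat shock transcription factor, read 7.40, 7.49 and 7.37 on the DMSO arrays and 7.52, 7.53 and 7.55 on the CA arrays. Every CA array was above every DMSO array, by a mean of 0.11 ± 0.044 (SE, n = 3 a group), adjusted p = 0.178, which missed the threshold.

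The inducible HSP70 genes HSPA1A and HSPA1B encode nearly the same protein, and the array reads them together. The brightest probe set annotated to both read 10.25, 10.23 and 10.15 on the DMSO arrays and 10.93, 10.92 and 10.86 on the CA arrays. All 3 CA arrays stood above the DMSO arrays by 0.69 ± 0.052 (SE, n = 3 a group), adjusted p = 0.000785, a 1.62-fold rise and more than any gene of the list with a probe set of its own. The call held with each array left out (adjusted p from 0.0048 to 0.0067). A probe set annotated to HSPA1A, HSPA1B and the related HSPA1L read 9.68, 9.67 and 9.53 on the DMSO arrays and 10.42, 10.39 and 10.25 on the CA arrays, a change of 0.73 ± 0.068 (SE, n = 3 a group), adjusted p = 0.00184. Another probe set for HSPA1A and HSPA1B was at 3.12 in DMSO and 3.21 in CA, under the lower quartile of each array (4.11 to 4.14), with a change of 0.09 that was not called (adjusted p = 0.645). These values come from a separate limma fit over all 54613 probe sets that are not controls, made after it was seen which genes lacked a probe set of their own. In that fit 3.0% of probe sets were called higher and 2.01% lower. No share of the rise could be assigned to HSPA1A or HSPA1B singly.

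HSPA8, the constitutive HSP70, had 4 probe sets, all shared with small nucleolar RNAs of its introns. Their mean levels lay between 13.94 and 14.36, and their changes ran from -0.019 to 0.033, none of them called. The HSP110 proteins HSPA4, HSPA4L and HSPH1 release ADP from HSP70. HSPA4 read 11.68, 11.77 and 11.74 on the DMSO arrays and 11.87, 11.95 and 11.98 on the CA arrays, without overlap, a change of 0.20 ± 0.048 (SE, n = 3 a group), adjusted p = 0.0445. Its call was lost with any 1 of the 6 arrays left out (adjusted p from 0.0522 to 0.13). Of its 4 probe sets 3 changed by values above 0, among them one at 0.25 that was called in the fit over probe sets (adjusted p = 0.0242). The one that ends in neither _x_at nor _s_at changed by -0.092, uncalled. HSPH1 changed by 0.14 (adjusted p = 0.113) without overlap between the groups, and HSPA4L by 0.053 with overlap.

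Neither cytosolic HSP90 gene was called. HSP90AA1, the inducible form, read 14.17, 14.19 and 14.14 on the DMSO arrays and 14.17, 14.17 and 14.19 on the CA arrays, a change of 0.0082 (95% interval -0.076 to 0.092). HSP90AB1, the constitutive form, read 13.59, 13.55 and 13.61 on the DMSO arrays and 13.65, 13.62 and 13.64 on the CA arrays, a change of 0.055 (95% interval -0.031 to 0.14, adjusted p = 0.406). The HSP90AA1 groups overlapped, and those of HSP90AB1 did not. The promoter windows of both hold both forms of the heat shock element, as that of the called gene DNAJB6 does.

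J proteins deliver unfolded clients to HSP70 and start its ATP hydrolysis. All 4 cytosolic ones of the list were called, beside 6.64% of all genes called higher. Outside the list, the cytosolic J proteins DNAJA2, DNAJA4, DNAJB2, DNAJB5 and DNAJC7 were uncalled, with changes from -0.0185 to 0.0912. DNAJB6, which also holds back aggregation of polyglutamine proteins, read 9.55, 9.58 and 9.59 on the DMSO arrays and 9.92, 10.02 and 10.01 on the CA arrays, a change of 0.41 ± 0.042 (SE, n = 3 a group), adjusted p = 0.00193. Its shared probe sets, also annotated to TMEM135, changed by 0.13 and 0.062 and were not called. Both were brighter (10.46 and 10.02 in DMSO) than the one used (9.57). DNAJA1, a farnesylated J protein, read 12.72, 12.66 and 12.67 on the DMSO arrays and 13.00, 12.98 and 12.99 on the CA arrays, a change of 0.31 ± 0.036 (SE, n = 3 a group), adjusted p = 0.00361. For this gene the groups are far apart beside their spread, but its second probe set changed by only 0.084 and was not called.

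DNAJB4 read 7.73, 7.77 and 7.71 on the DMSO arrays and 8.04, 8.10 and 7.98 on the CA arrays, a change of 0.31 ± 0.044 (SE, n = 3 a group), adjusted p = 0.00799. DNAJB1, the classical heat-inducible HSP40, read 9.90, 9.91 and 9.93 on the DMSO arrays and 10.18, 10.16 and 10.20 on the CA arrays, a change of 0.26 ± 0.035 (SE, n = 3 a group), adjusted p = 0.00556. Both of the probe sets of DNAJB1 and both of DNAJB4 were called higher in the fit over probe sets, with changes of 0.26 and 0.36 for DNAJB1 and of 0.31 and 0.38 for DNAJB4.

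BAG3 joins HSP70 to small heat shock proteins and to selective autophagy. It read 9.94, 10.01 and 9.86 on the DMSO arrays and 10.50, 10.50 and 10.44 on the CA arrays, a change of 0.54 ± 0.049 (SE, n = 3 a group), adjusted p = 0.00126, or 1.45-fold. That was the largest change among the cytosolic genes measured by their own probe set, and the CA arrays were closer together than the DMSO arrays. The cochaperones of HSP90 were not called: STIP1, which bridges HSP70 and HSP90, changed by 0.07, the immunophilin FKBP4 by 0.089 and CHORDC1 by 0.14 (adjusted p = 0.329, 0.301 and 0.172). Every CA array was above every DMSO array for each of the 3. One of the other probe sets of FKBP4 rose by 0.27 and was called, and it stands for the gene where the probe set of largest variance is chosen (adjusted p = 0.0308). HSPB1, the small heat shock protein HSP27, changed by 0.13 (adjusted p = 0.109), also without overlap.

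**Figure D2:**
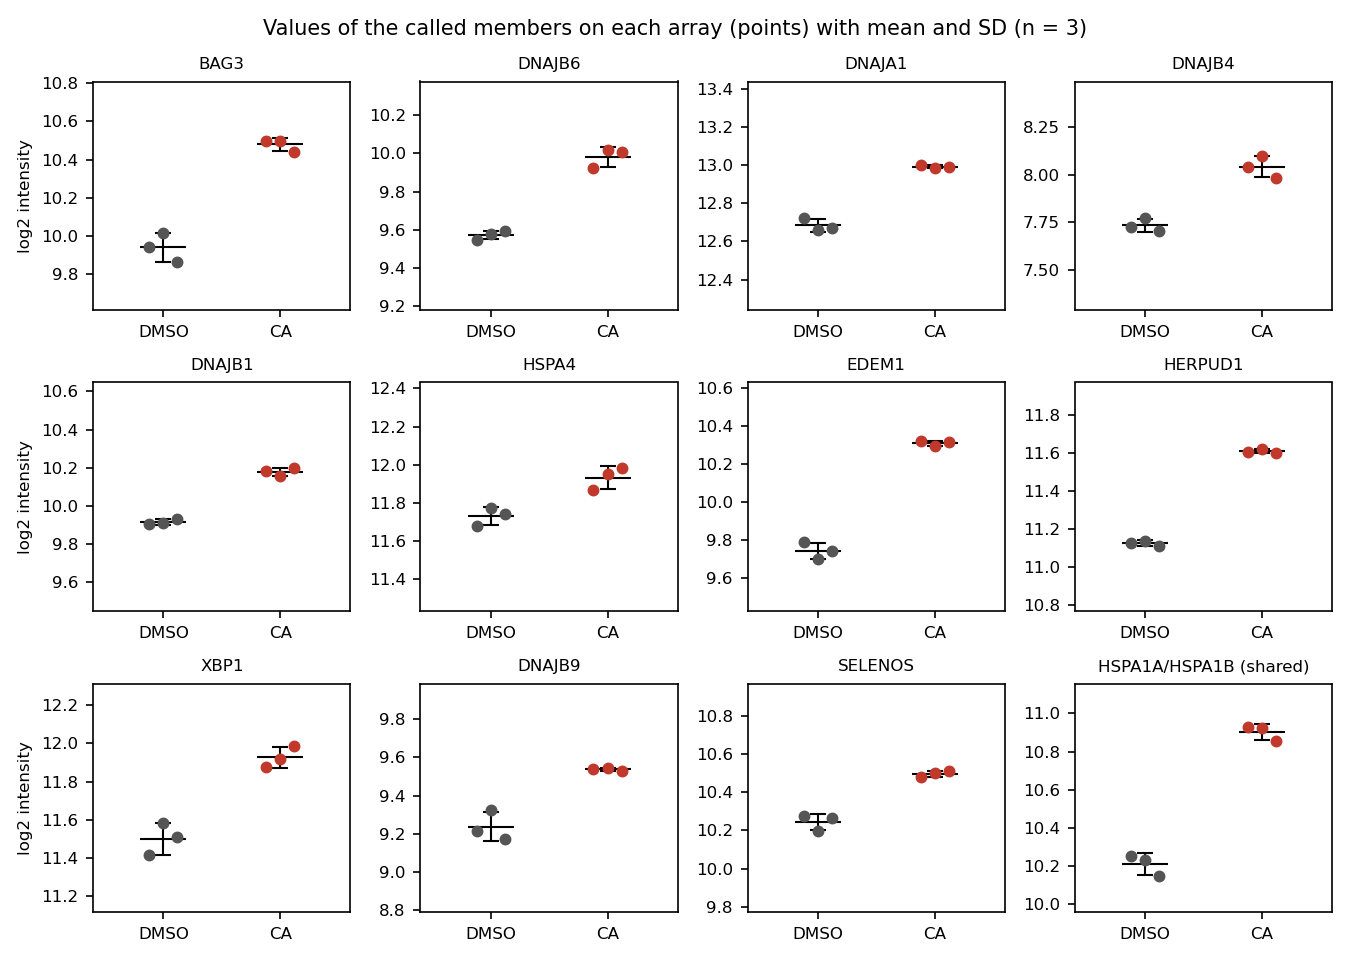
Log2 intensity on each array (points) with the group mean and SD (n = 3) for the 11 called genes and for the brightest probe set shared by HSPA1A and HSPA1B; every panel spans the same range on its vertical axis. In each panel the 3 CA points lie above the 3 DMSO points, by 0.20 for HSPA4 and by 0.69 for the shared HSPA1A and HSPA1B probe set.

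In mitochondria, HSPD1 and its lid HSPE1 form the folding chamber, and HSPA9 is the HSP70 of the matrix. HSPE1 read 12.84, 12.90 and 12.80 on the DMSO arrays and 12.97, 13.07 and 13.01 on the CA arrays, a change of 0.17 ± 0.046 (SE, n = 3 a group), adjusted p = 0.063. HSPD1 read 14.22, 14.21 and 14.22 on the DMSO arrays and 14.27, 14.27 and 14.26 on the CA arrays, a change of 0.053 (adjusted p = 0.392). HSPA9 read 12.78, 12.76 and 12.76 on the DMSO arrays and 12.80, 12.80 and 12.83 on the CA arrays, a change of 0.043 (adjusted p = 0.51). All 3 genes had every CA array above every DMSO array, and none was called.

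Among the ER sensors and factors, XBP1 rose and the others were not called. XBP1 read 11.41, 11.58 and 11.51 on the DMSO arrays and 11.88, 11.92 and 11.99 on the CA arrays, a change of 0.43 ± 0.056 (SE, n = 3 a group), adjusted p = 0.00536, or 1.34-fold. Its other probe set, far dimmer, changed by 0.45 (adjusted p = 0.075, uncalled). These values do not separate the spliced from the unspliced XBP1 mRNA. ERN1, which encodes IRE1, the enzyme that splices XBP1, read 6.98, 7.04 and 7.03 on the DMSO arrays and 6.97, 6.99 and 7.12 on the CA arrays, a change of 0.013 (95% interval -0.11 to 0.13), and its groups overlapped. ATF6 read 9.82, 9.80 and 9.84 on the DMSO arrays and 9.74, 9.66 and 9.72 on the CA arrays, lower on every CA array, a change of -0.11 ± 0.039 (SE, n = 3 a group), adjusted p = 0.128.

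None of the 3 major ER chaperones was called. HSPA5, the ER HSP70 known as BiP, is a standard readout of ER stress. It read 12.76, 12.77 and 12.74 on the DMSO arrays and 12.67, 12.73 and 12.72 on the CA arrays, lower on every CA array by a small margin, a change of -0.049 (95% interval -0.14 to 0.039, adjusted p = 0.48). The dimmer second probe set of HSPA5 (8.01 in DMSO) changed by -0.19, uncalled in the limma fit over probe sets (adjusted p = 0.295). HSP90B1, the ER HSP90 known as GRP94, read 11.37, 11.25 and 11.38 on the DMSO arrays and 11.21, 11.11 and 11.11 on the CA arrays, lower on every CA array, a change of -0.19 ± 0.055 (SE, n = 3 a group), adjusted p = 0.079. It was called lower where genes with a mean log2 under 5 were left out of the limma fit (adjusted p = 0.0423). That filter also called SDF2L1 and HSPE1 higher (adjusted p = 0.0266 and 0.0301). With genes under 6 left out, HSPH1 and HSPB1 were called higher too, and ATF6 lower (adjusted p = 0.0355, 0.0316 and 0.0366). The HSP90B1 probe set used can match several transcripts. The second probe set of HSP90B1 (-0.091) and those shared with MIR3652 (-0.13 and -0.089) also changed by values below 0, uncalled. HYOU1, the ER HSP110, changed by 0.025 (adjusted p = 0.809).

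Of the 3 ER J proteins, DNAJB9 was called. DNAJB9, which also returns IRE1 to its resting state, read 9.22, 9.32 and 9.17 on the DMSO arrays and 9.54, 9.54 and 9.53 on the CA arrays, a change of 0.30 ± 0.048 (SE, n = 3 a group), adjusted p = 0.0119, and 2 of its 3 probe sets were called in the fit over probe sets. DNAJB11, a partner of BiP in the lumen, changed by -0.07 with every CA array lower (adjusted p = 0.279), and DNAJC3, an inhibitor of PERK, by -0.009 with overlap.

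Of the 5 measured genes of ER-associated degradation, which sends misfolded proteins to the proteasome, 3 were called higher, beside 6.64% of all genes. Among 24 further genes of this function, described below, 2 were called higher (8.33%) and 1 lower. EDEM1, a lectin-like protein that marks misfolded glycoproteins by mannose trimming, read 9.79, 9.70 and 9.74 on the DMSO arrays and 10.32, 10.29 and 10.32 on the CA arrays, a change of 0.56 ± 0.039 (SE, n = 3 a group), adjusted p = 0.000423, the largest of the 39 genes. HERPUD1, a membrane scaffold of the degradation complex, read 11.13, 11.14 and 11.11 on the DMSO arrays and 11.61, 11.62 and 11.60 on the CA arrays, a change of 0.48 ± 0.034 (SE, n = 3 a group), adjusted p = 0.000452. Its dimmer second probe set (6.43 in DMSO) changed by 0.059 and was not called, and it is the one left when probe sets ending in _x_at or _s_at are dropped. SELENOS, a selenoprotein that ties the complex to the p97 motor, read 10.28, 10.19 and 10.26 on the DMSO arrays and 10.48, 10.50 and 10.51 on the CA arrays, a change of 0.25 ± 0.039 (SE, n = 3 a group), adjusted p = 0.0103.

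Other parts of the same degradation complex were not called. SEL1L, the partner of the ubiquitin ligase SYVN1, changed by -0.047, and EDEM2, a mannosidase, by 0.044, both with overlap. The probe set of SYVN1, shared with MIR6751, read 8.27, 8.22 and 8.20 on the DMSO arrays and 8.38, 8.28 and 8.38 on the CA arrays, higher on every CA array, a change of 0.12 (adjusted p = 0.3 in the fit over probe sets).

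The other ER genes were not called in either direction. SDF2L1, which binds the J protein DNAJB11, came closest with 0.20 (adjusted p = 0.0538), higher on every CA array. The disulfide isomerases PDIA4 and PDIA6 changed by 0.051 and 0.014. CRELD2 changed by -0.064 and MANF, a secreted stress protein, by -0.088. The translocon subunit SEC61B changed by -0.0057 and the COPII coat subunit SEC24D by 0.069. Their adjusted p-values ran from 0.0538 (SDF2L1) to 0.948 (SEC61B).

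Set against the promoter elements, both heat shock element forms and both ER stress elements held called and uncalled genes. Of the genes with the head-to-head heat shock element in the window shown or searched, DNAJA1, DNAJB1, DNAJB6 and SELENOS were called, as was the probe set of HSPA1A and HSPA1B, while HSP90AA1, HSP90AB1, HSPB1, CHORDC1 and the mitochondrial HSPD1 were not, and neither were the shared probe sets of HSPA8. Of those with the tail-to-tail form, DNAJB4 and DNAJB6 were called, and HSP90AA1, HSP90AB1, HSPA4L, CHORDC1 and HSPD1 were not, nor were the probe sets of HSPA8. Of the 5 genes with the ER stress element, XBP1 was called, while HSPA5, HSP90B1, PDIA6 and CRELD2 changed by -0.049, -0.19, 0.014 and -0.064. Of the 3 with the ER stress element II, HERPUD1 was called, and HYOU1 and SDF2L1 were not. No test was made of this split.

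Cytosolic and ER forms of a chaperone type, and the mitochondrial pair HSPD1 and HSPE1, were compared within each array, as the log2 value of one gene minus that of the other. The difference between probe sets has no meaning as a level, but its shift from DMSO to CA measures how unequally their values changed. For HSP90B1 the probe set used changed by -0.19, and its brighter probe sets shared with MIR3652 by -0.13 and -0.089. HSP90B1 minus HSP90AB1 was lower on every CA array, by a mean of 0.25, and HSP90B1 minus HSP90AA1 by 0.20. HYOU1 minus HSPH1 was lower by 0.11, and HSPD1 minus HSPE1 by 0.12, again without overlap. DNAJB9 minus DNAJB1 shifted by 0.035 with overlap. The 2-sided exact permutation p was 0.1 for the first 4 pairs, the smallest that 3 against 3 arrays can give, and 0.6 for the last. After Benjamini-Hochberg adjustment over the 5 pairs these were 0.125 and 0.6, so none passed a threshold of 0.05.

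**Figure D3:**
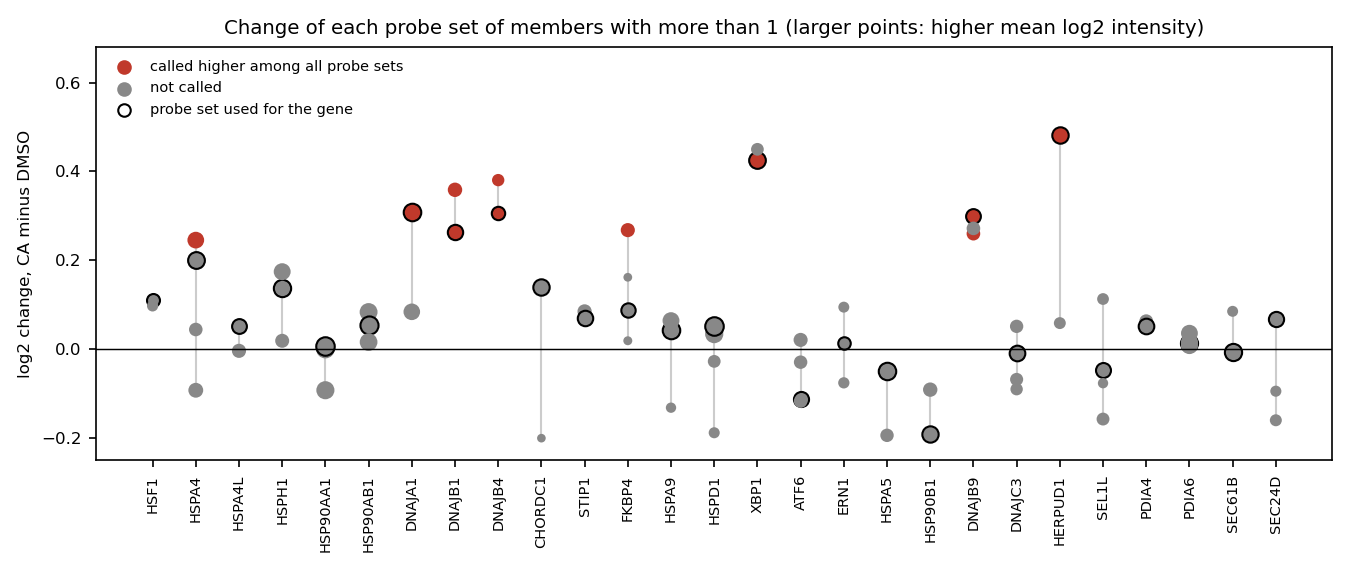
Change (log2, CA minus DMSO) of every probe set annotated to 1 gene alone, for the genes with more than 1; larger points have a higher mean intensity, black outlines mark the probe set used for the gene, and red points were called higher in the fit over 54613 probe sets. Both probe sets of DNAJB1 and of DNAJB4 are red, while the second probe sets of DNAJA1 (0.084) and HERPUD1 (0.059) lie well under the one used.

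A further 178 measured genes of the same pathways, in 7 lists drawn up by function, held 19 called higher and 8 called lower. That is to be read beside 6.64% higher and 4.49% lower over all genes, many of them dimmer. The median levels of the 7 lists ran from 8.80 to 12.59, beside 6.47 over all genes. When genes averaging under 6 were dropped from the fit, 32 of 166 were called higher and 19 lower. Over all 10997 genes left, 1914 were called higher and 1539 lower. With all genes kept and 1 array left out at a time, 5 to 7 of the 178 were higher and 2 to 5 lower. The calls over all genes then went from 1314 higher and 888 lower to between 721 and 848 higher and between 435 and 495 lower. The cytosolic list of 31 measured genes had 3 higher (9.68%) and 0 lower and a median change of 0.05. CRYAB, the small heat shock protein alphaB-crystallin, rose by 0.23 from a low level of 4.37. FKBP5 (adjusted p = 0.034), an HSP90 immunophilin, rose by 0.16, and SUGT1, an HSP90 adaptor, by 0.17, but another probe set of SUGT1 changed by -0.21. In the chaperonin and prefoldin list of 12 genes, whose products fold actin and tubulin, PFDN5 fell by 0.20 and none was higher. In the mitochondrial list of 13, TRAP1, the HSP90 of mitochondria, rose by 0.17, and its probe set of largest variance changed by -0.051. The calls of CRYAB, FKBP5, SUGT1, PFDN5 and TRAP1 were each lost with at least 4 of the 6 arrays left out in turn.

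The ER folding list of 33 genes had 3 higher (9.09%) and 0 lower and a median change of 0.01. DNAJC1, an ER membrane J protein, rose by 0.42 (adjusted p = 0.00124), SERPINH1, the collagen chaperone, by 0.23, and the lectin chaperone CALR by 0.17. The ER degradation list of 24 genes had 2 higher (8.33%) and 1 lower. They were UBE2J1, a ubiquitin-conjugating enzyme of the ER, higher by 0.21, the protease RHBDD1 higher by 0.16, and the ubiquitin ligase MARCHF6 lower, with a change of -0.14. These shares of genes called higher are near the 6.64% over all genes. With the mean of all probe sets RHBDD1 changed by 0.064, uncalled, and with the probe set of largest variance MARCHF6 changed by 0.28, uncalled, and UBE2J1 by 0.32, called. With each array left out in turn, the call of DNAJC1 held every time, and those of SERPINH1, CALR, UBE2J1, RHBDD1 and MARCHF6 were lost every time.

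Genes of translocation into the ER and of export from it by COPII vesicles had 6 higher (16.2%) and 2 lower (5.41%) of 37, with a median of 0.03. KDELR3, a receptor that returns ER residents from the Golgi, rose by 0.73 (adjusted p = 0.0236) from 5.51 ± 0.07 to 6.24 ± 0.30 (SD, n = 3), a level near the array median, and kept its call with any CA array left out but not with any DMSO array left out. With the mean of all its probe sets its change was 0.34, still called. The COPII coat subunit SEC31A rose by 0.49 (adjusted p = 0.0017), PREB, the exchange factor that starts coat assembly, by 0.37 (adjusted p = 0.00359), and SEC13, the partner of SEC31A, by 0.24 (adjusted p = 0.00796). SEC31A, PREB and SEC13 kept their calls with each array left out. The remaining calls, named after their values were seen, were SEC23A (0.21) and SEC61A1 (0.16) higher, and the signal peptidase subunits SPCS3 (-0.23) and SPCS1 (-0.20) lower. With arrays left out in turn, SEC61A1 lost its call every time, SEC23A and SPCS3 5 times of 6 and SPCS1 4 times, and with the mean of all probe sets SPCS3 changed by -0.13, uncalled.

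The list of other sensors and of the PERK arm was split, with 4 higher and 4 lower of 28 (14.3% each) and a median of -0.017. ASNS, asparagine synthetase and a target of ATF4, fell by 0.30 (adjusted p = 0.0106), and EIF2AK2, the RNA-sensing kinase PKR, by 0.27 (adjusted p = 0.0102). CREB3L4, an ER-anchored factor, rose by 0.30 (adjusted p = 0.00988), and ATF3, a stress-induced factor, by 0.27 (adjusted p = 0.0141). Further calls, named after their values were seen, were DDIT4 (0.26) and CREB3 (0.23) higher and TRIB3 (-0.24) and ATF4 (-0.19) lower. Of these 8, the calls of ASNS, EIF2AK2 and CREB3L4 held with each array left out, and each of the other 5 lost its call with at least 4 of the 6 left out in turn. With the mean of all probe sets, ASNS changed by -0.19 (adjusted p = 0.0904), EIF2AK2 by -0.16 (adjusted p = 0.082) and ATF3 by 0.11 (adjusted p = 0.256), all uncalled. Without probe sets ending in _s_at or _x_at, ASNS changed by -0.089 (adjusted p = 0.663) and ATF3 by 0.14 (adjusted p = 0.466), and with the probe set of largest variance TRIB3 changed by -0.14, again uncalled.

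**Figure D4:**
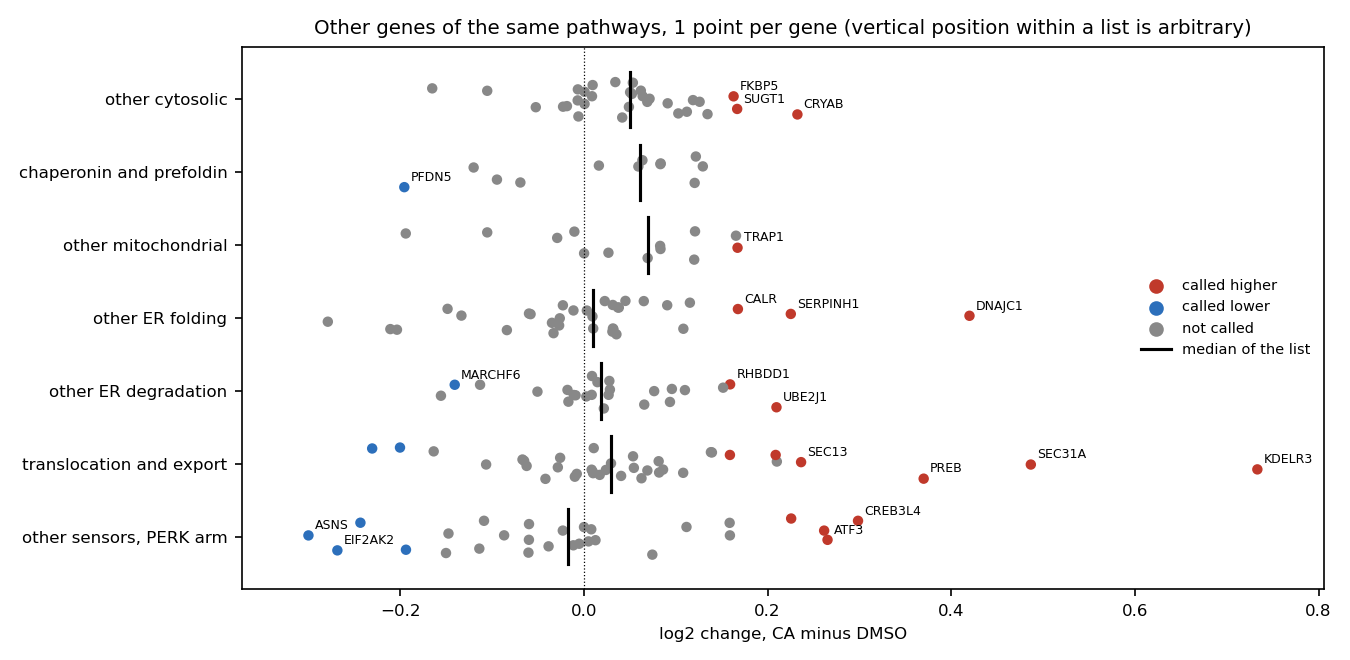
Change (log2, CA minus DMSO) of 178 further genes of the same pathways in 7 lists, 1 point per gene, with the list's median as a black bar; red points were called higher and blue points lower, and up to 4 called genes per list are named. The list medians lie between -0.017 and 0.069, and the widest changes are those of KDELR3 (0.73, or 0.34 with the mean of its probe sets), SEC31A (0.49) and DNAJC1 (0.42).

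Arrays of the same group correlated at r = 0.998 across probe sets and arrays of different groups at 0.996 to 0.997. For the GAPDH control, the probe set at the 3′ end exceeded that at the 5′ end by 0.38 ± 0.02 on the DMSO arrays and by 0.48 ± 0.05 on the CA arrays (SD, n = 3, exact permutation p = 0.1). This gap was wider on every CA array than on every DMSO array, and that p is the smallest 3 against 3 arrays can give. For ACTB the gap was 2.27 ± 0.13 and 2.38 ± 0.07 (exact permutation p = 0.3), with overlap. Such a gap widens as RNA degrades, and its part in the changes above was not tested. Of 13 myeloid marker genes, 11 were measured, with LYZ at 13.38 and FLT3 at 11.69 in DMSO, whereas CD14 (4.36), ANPEP (4.29) and FCGR1A (4.05) lay near the arrays' lower quartile. The mean of the 11 ran from 7.47 to 7.49 in DMSO and from 7.40 to 7.47 in CA, with ITGAM, CSF1R and CD4 called lower and MEIS1 higher. Of the T and NK list NCAM1 was called, from a level of 10.30, while CD3D, CD3E, CD3G, CD2 and CD8A were uncalled at 4.08 to 5.37. Markers of B, plasma, erythroid, epithelial and stromal cells were uncalled, and their list means on single arrays were between 4.27 and 5.64. The plasma cell markers SDC1, MZB1, TNFRSF17 and JCHAIN, cells in which XBP1 and the ER genes are high, had a mean of 4.27 to 4.35 in DMSO and 4.31 to 4.38 in CA. In RNA of a whole well, a change in the share of cells and a change per cell cannot be told apart.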

How the data were processed

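RNA of 3 DMSO and 3 CA wells of MOLM-14 was read on 1 array each. The authors deposited log2 intensities, 1 per probe set and array, made by RMA with affy according to the submitters' processing notes, which give no versions. RMA corrects background, equalises the arrays' distributions and compresses large changes. 2 RNA kits are named in the labels' protocols without saying which served which well. Of 54675 probe sets, 62 were controls, 41091 named 1 gene and 1801 several; 41037 of the former matched a current gene table by Entrez number.

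The test of CA against DMSO was limma's lmFit and eBayes (limma 3.58.1, R 4.3.3; 2-sided, no covariate, no filter on level), tested on simulated data first. Calls are at an adjusted p under 0.05. The p-values measure the spread between wells of 1 experiment, which may be technical, and 6 arrays limit the precision. The genes, lists, motifs and tests were chosen with earlier results of these data known. Every measured gene of the list is given, with all arrays for those called and for a fixed set of sensors and chaperones, and up to 4 called genes of each other list with the largest change. The fit over 54613 probe sets was added after seeing the data. Alternatives varied the choice of probe set, filter, centring, normalization, moderation, threshold, replicate block and arrays left out.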

Additional observations from a re-analysis of the deposited data

How the results depend on the processing

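With probe sets that end in _x_at or _s_at left out, 1 of 9 measured cytosolic genes and 3 of 16 ER genes were called higher. Over all genes 770 of 17098 were. BAG3, DNAJB1, DNAJB6 and SELENOS were then unmeasured. DNAJA1, HSPA4 and HERPUD1 were measured by another probe set and were not called. With an intensity trend and robust moderation 10 cytosolic genes were higher, where 2119 of all 19775 genes were. Other settings gave 5 to 8 cytosolic and 4 to 6 ER genes, and leaving out each array 5 and 5. Calls over all genes moved as well, from 1314 higher and 888 lower in the main fit. They were 1035 and 718 (mean of all probe sets), 841 and 570 (largest variance) and 770 and 566 (no _x_at or _s_at). Filters gave 1752 and 1304 of 13838 (mean log2 of at least 5) and 1914 and 1539 of 10997 (at least 6). They were 1090 and 1018 (reference genes), 2119 and 1695 (trend and robust) and 1869 and 1432 (adjusted p under 0.1). With the replicate block they were 716 and 402. The median of the cytosolic genes was 0.12 with the mean of all probe sets, 0.053 without those probe sets and 0.12 with centring on reference genes, and 0.11 to 0.18 with each array left out; that of the ER genes was -0.0031 with centring on reference genes and -0.0076 after a second quantile normalization. ER genes called lower were 1 with a mean log2 of at least 5, 2 with at least 6, 2 with trend and robust moderation and 1 at adjusted p under 0.1. Other pathway genes called higher were 12 (mean of all probe sets), 11 (largest variance), 6 (no _x_at or _s_at), 29 and 32 (mean log2 of at least 5 and 6), 12 (reference genes), 41 (trend and robust), and 5 to 7 with an array left out; those called lower were 5, 2, 5, 16 and 19 in the first 5 settings, 26 (trend and robust), 16 (adjusted p under 0.1), and 2 to 5 with an array left out. Directions turned for HSPA4 (-0.092 without _x_at or _s_at), SUGT1 (-0.011 with the mean of all probe sets, -0.21 with largest variance or without _x_at or _s_at), MARCHF6 (0.28) and TRAP1 (-0.051) with largest variance, and DNAJB9 minus DNAJB1 (-0.034 with the mean, -0.059 with largest variance, and -0.0053 to 0.081 with each array left out, -0.0053 being without DMSO replicate 3). The cause of these shifts was not tested. Replicate numbers did not pair the arrays (same-number correlations of 0.0225, 0.0299 and 0.0245); with the replicate block 5 cytosolic and 4 ER genes were higher, SELENOS had an adjusted p of 0.0515 and HSPA4 of 0.0712, and other pathway genes were 6 higher and 2 lower. Of the 11 called genes, the 10 other than HSPA4 kept their call with each array left out. The number of arrays and dim signal near the lower quartile limit the smallest changes that could be called.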
